A study of Mus musculus with 16 samples.

Results

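The keratin-associated proteins were followed through the acute withdrawal of TERT from mouse skin. They were taken as every probe set of the array whose gene symbol in the platform annotation starts with Krtap, which gave 49 of the 45101 probe sets. Of these, 43 carried 1 symbol and stood for 38 genes, and 6 carried several symbols and are counted below without being named. The 49 probe sets covered 23 families, numbered by the figure after Krtap.

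Keratin-associated proteins are small, cysteine-rich or glycine- and tyrosine-rich proteins that fill the space between the keratin intermediate filaments of the hair shaft and crosslink them through disulfide bonds. Their genes are switched on in the differentiating cells above the hair matrix, in cortex or cuticle, while the follicle is in anagen, its growth phase, and are silent in the resting phase, telogen. The families are usually grouped into high sulfur, ultrahigh sulfur and high glycine-tyrosine proteins.

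Dorsal skin of iK5-TERT mice (K5tTA-tetop-TERT) was profiled on 16 arrays, 1 per biopsy. In these mice the keratin 5 promoter drives the transactivator in the basal epidermis and the outer root sheath, so transgenic Tert is made there unless doxycycline is given. Transgenic Tert in the shaft cells that make keratin-associated proteins was not measured separately. All mice, controls included, carried both transgenes, had doxycycline in the drinking water (5 µg/ml) until day 10 to 21 and were labelled as 60 days old with follicles in anagen. TERT-off mice received doxycycline by injection (8 µg/g) and TERT-on mice received the vehicle, PBS. Biopsies of 3 cm² were taken at 0, 6, 12 and 24 h, and the subcutaneous fat was removed. Each of the 8 groups held 2 arrays, and arrays with the same cohort and replicate number were taken as serial biopsies of 1 mouse, which the labels do not state, so that each cohort is 2 mice. Over all probe sets, the deviations of same-numbered arrays from their group means correlated at 0.120 to 0.637 in TERT-off but at -0.149 to 0.323 in TERT-on. At 0 h the labels already describe TERT-off skin as injected, but by the methods that biopsy preceded the injection, and it was read so here.

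The main Tert probe set, which reads the targeted gene, gave intensities of 185 and 199.9 in the TERT-off mice and 357 and 216 in the TERT-on mice at 0 h. From 6 to 24 h it lay between 8.32 and 16.1 in TERT-off and between 22.6 and 64.6 in TERT-on skin, so it was lower after 0 h in the vehicle-injected mice too. One array, the 0 h biopsy of TERT-on replicate 1, had a ratio of 5′ to 3′ Gapdh signal of 0.0599, while the other arrays had 0.977 to 1.12. TERT-off replicate 1 had little Krtap signal at all 4 times, 0 h included, and the main counts and medians are also given without it; differences of single genes include it.

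All 38 genes were found in RefSeq (GRCm38.p6). They lie in clusters: families 1, 3, 4, 9, 17 and 31 on chromosome 11, the families 6, 7, 8, 11, 13, 14, 15, 16, 19, 21, 22 and 26 on chromosome 16, family 5 on chromosome 7, families 10 and 12 on chromosome 10 and family 28 on chromosome 1. A reference promoter, running from 250 bases before to 50 after the annotated start, was at hand for 36 of the genes. The letters TATAAA, the core of a TATA box, occurred on either strand in 29 of the 36 (80.6%), against 13.6% of all 32851 promoters. On the coding strand and starting 40 to 20 bases before the start, TATAAA was found in 21 of the 36 (58.3%), against 1.99% of all promoters. The shorter TATAA, searched after the first result was seen and contained in TATAAA, was found there in 24 (66.7%), against 3.52%. The letters CTTTGA, the core of the site of the Wnt effector LEF/TCF, occurred in 10 of the 36 (27.8%, against 16% of all promoters), and the E-box CACGTG in 3 (8.33%, against 7.15%), both on either strand. These are matches of letters and not measured sites, and genes of 1 family share sequence and are not independent.

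The 100 bases before the start of 6 genes are shown because these genes recur in the values described below. They are Krtap4-6 (the largest cohort difference of a probe set with 1 symbol), Krtap4-16 (a small fall within TERT-on replicate 1), Krtap19-1 (a large one), Krtap8-1 (a small rise within TERT-on replicate 2), Krtap31-1 (very low on 1 array of each TERT-on mouse) and Krtap11-1. All are RefSeq sequences of GRCm38.p6, 5′ to 3′ on the coding strand, with TATAAA in capitals. In the order printed, they are chr11:99665961-99666060 (minus strand), chr11:99851606-99851705 (minus), chr11:99907820-99907919 (plus), chr16:89487953-89488052 (minus), chr16:89571184-89571283 (minus) and chr16:88869411-88869510 (minus).
Krtap4-6: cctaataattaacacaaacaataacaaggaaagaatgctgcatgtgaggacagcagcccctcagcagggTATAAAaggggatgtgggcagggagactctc
Krtap4-16: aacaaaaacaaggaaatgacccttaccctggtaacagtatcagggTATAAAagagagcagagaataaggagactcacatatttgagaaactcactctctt
Krtap31-1: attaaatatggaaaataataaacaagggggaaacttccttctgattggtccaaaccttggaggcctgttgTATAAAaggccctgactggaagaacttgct
Krtap8-1: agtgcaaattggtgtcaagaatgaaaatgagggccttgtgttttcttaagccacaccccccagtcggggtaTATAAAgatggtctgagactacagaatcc
Krtap11-1: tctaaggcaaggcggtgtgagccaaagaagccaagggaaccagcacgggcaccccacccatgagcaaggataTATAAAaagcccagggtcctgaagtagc
Krtap19-1: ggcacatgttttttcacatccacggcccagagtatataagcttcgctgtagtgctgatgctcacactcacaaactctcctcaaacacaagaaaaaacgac
TATAAA starts 31 bases before the start in Krtap4-6, 30 in Krtap31-1, 29 in Krtap8-1 and 28 in Krtap11-1, but 55 in Krtap4-16, and the stretch of Krtap19-1 does not hold it.

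Taken as 4 mice, the arrays followed 4 different courses, which nearly all Krtap genes shared. Values are the deposited intensities, on a linear scale that is comparable between arrays for the same probe set but not between probe sets. TERT-off replicate 1 showed almost no Krtap signal from the start. TERT-off replicate 2 had high signal at 0 and 6 h and lost it between 6 and 12 h, TERT-on replicate 1 lost it more slowly from 6 to 24 h, and TERT-on replicate 2 gained it between 0 and 6 h and then held it.

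Krtap8-1, a high glycine-tyrosine protein, read 9.34, 6.27, 8.73 and 12.2 at 0, 6, 12 and 24 h for TERT-off replicate 1 and 6224, 4918, 912 and 379.98 in TERT-off replicate 2. In TERT-on replicate 1 it read 5276, 5982, 4697 and 2179.9, and in TERT-on replicate 2 it read 3281, 6378, 6263 and 6443. TERT-off replicate 2 thus lay within the range of the TERT-on arrays before 12 h and below all of them from then on.

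Krtap11-1, a high sulfur protein, read 4.15, 5.085, 6.26 and 4.235 in TERT-off replicate 1 and 3085, 2806, 139 and 34.7 in TERT-off replicate 2. It read 3056, 3688, 2135 and 833 in TERT-on replicate 1 and 1278, 3455, 3701 and 3806 in TERT-on replicate 2. Here, too, TERT-off replicate 2 left the range of the TERT-on arrays only after 6 h.

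Krtap4-16, an ultrahigh sulfur protein, read 12.9, 11.5, 8.05 and 10.5 in TERT-off replicate 1 and 1354, 846, 30.8 and 21.0 in TERT-off replicate 2. It read 955, 851, 817 and 419 in TERT-on replicate 1 and 535, 1298, 1392 and 2221 in TERT-on replicate 2. The late decline of TERT-on replicate 1 was small in this gene.

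Krtap19-5, a high glycine-tyrosine protein, showed the opposite. It read 4.56, 4.385, 4.78 and 3.345 in TERT-off replicate 1 and 3094, 2996, 133 and 112 in TERT-off replicate 2. It read 2751, 1988, 832 and 105 in TERT-on replicate 1 and 489.7, 2387, 2493 and 2470.1 in TERT-on replicate 2. At 24 h the vehicle-injected TERT-on replicate 1 was thus as low as the doxycycline-injected TERT-off replicate 2.

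Krtap31-1, an unclassed member, was very low on 1 array of each TERT-on mouse. It read 632, 491, 144 and 11.5 in TERT-on replicate 1, and 15.2, 734, 780.3 and 1510.4 in TERT-on replicate 2. In TERT-off replicate 1 it stayed between 17.8 and 21.2, and in TERT-off replicate 2 it read 889, 645, 34.2 and 17.6. Its lowest value in each TERT-on mouse was thus below its level in TERT-off replicate 1, and no fold is given from them.

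**Figure D1:**
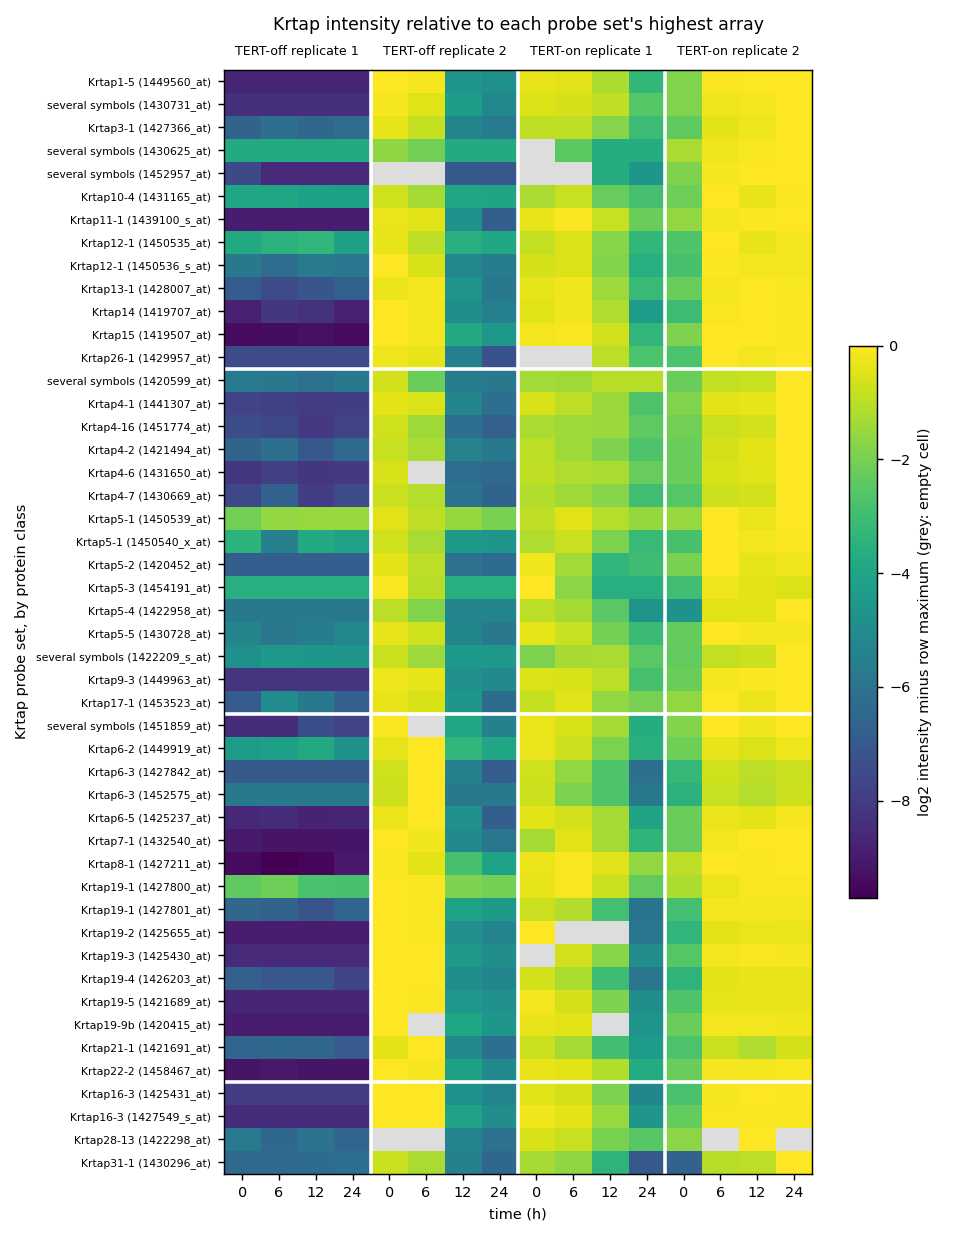
The 48 Krtap probe sets tested (rows, by protein class, with white lines between high sulfur, ultrahigh sulfur, high glycine-tyrosine and unclassed families) on the 16 arrays (columns, by mouse and time in h). Colour gives log2 intensity, floored at 7.71, minus the row's highest array; TERT-off replicate 1 is dark throughout, TERT-off replicate 2 darkens between 6 and 12 h, and grey cells are empty in the deposited table.

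Averaged over 37 genes, with 1 probe set per gene and empty cells left out, log2 intensity in TERT-off replicate 1 was 3.68, 3.76, 3.66 and 3.64 at 0, 6, 12 and 24 h. It was 10.54, 10.29, 6.10 and 5.40 in TERT-off replicate 2, 10.18, 9.98, 8.95 and 7.15 in TERT-on replicate 1 and 8.32, 10.56, 10.50 and 10.71 in TERT-on replicate 2. At 0 h the difference between the TERT-off mice exceeded any difference between the cohorts. The labels place every biopsy in anagen, but in TERT-off replicate 1, 40 of the 49 members stayed below the table's median intensity (34.4) on all 4 arrays, and 92 of the 105 Krtap values under the floor of 7.71 came from this mouse. The member that carries the symbol Krtap13 was dim everywhere (4.34 to 14.4 on the 16 arrays) and was not tested; the other 48 members passed the filter on low values.

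**Figure D2:**
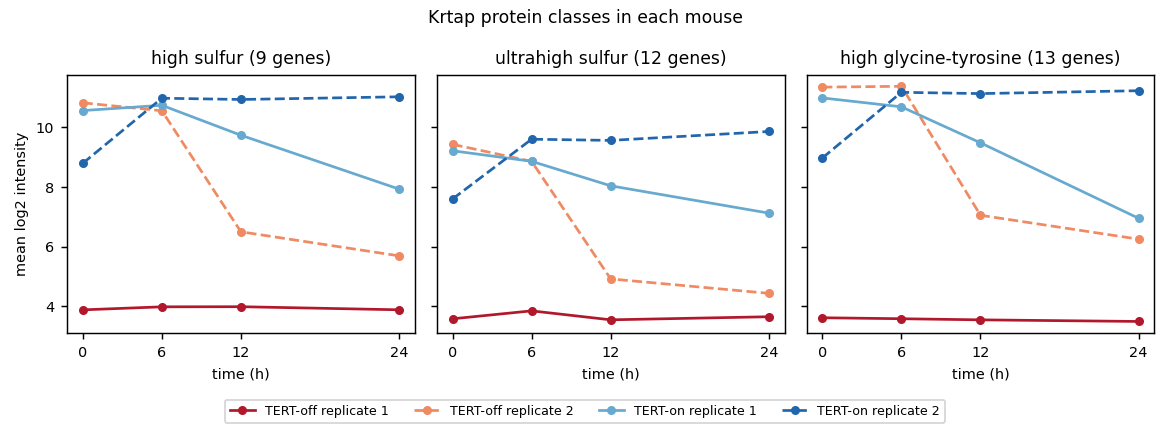
Mean log2 intensity of the Krtap genes of each protein class (empty cells left out) against time in h, with 1 line per mouse. In all 3 classes TERT-off replicate 1 stays flat and low and TERT-off replicate 2 falls between 6 and 12 h, and the late fall of TERT-on replicate 1 is deepest in the high glycine-tyrosine class.

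To compare the cohorts, the log2 difference between them (negative where TERT-off was lower) was averaged over 6, 12 and 24 h in a limma model that took each mouse as a random block, and probe sets with a Benjamini-Hochberg adjusted p under 0.05 over all 25563 tested were called. All 48 Krtap probe sets had a negative difference, with a median of -4.43 against 0.03 over all probe sets, and 32 were called lower. Of all probe sets tested, 10.8% were called lower. By gene, 25 of 37 Krtap genes were called lower (12.6% of all genes), and none was called higher. Empty cells were left out of the fit and values under the floor were raised to it, so the size of a difference depends on both.

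These calls rest on few mice. The mean of 6 to 24 h was lower in both TERT-off mice than in both TERT-on mice for 44 of the 48 probe sets (30.1% of all), yet every TERT-off array with a value was below every TERT-on array for only 5 of the 48, against 4.19% of all. In 4 of the 5, Krtap4-6 and Krtap28-13 among them, the value of TERT-off replicate 2 at 6 h was empty. Krtap28-13 and a probe set of several symbols in family 3, both among the 5, passed the filter on low values through TERT-on arrays alone. Without TERT-off replicate 1, 21 of 43 Krtap probe sets were called lower (7.44% of all) and the median was -2.37. Without TERT-off replicate 2, 44 of 48 were called (16.2% of all). Without TERT-on replicate 1 only 2 of 47 were called (0.623% of all), and without TERT-on replicate 2 only 1 of 42 (0.0473% of all). Arrays of 1 mouse were also more alike for Krtap probe sets (consensus correlation 0.524) than over the whole array (0.0728), and with the Krtap value in the model 0 of the 48, and 0 of all probe sets, were called lower by limma (28 of the 48 at an unadjusted p under 0.05). With 2 mice against 2, a permutation test over mice cannot give a two-sided p below 0.333. In whole biopsies, fewer shaft-forming cells and less RNA per cell cannot be told apart.

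The high sulfur families, proteins of the hair cortex in the main, gave 12 called of 13 probe sets, and 7 of 12 without TERT-off replicate 1 (median -2.55 instead of -4.98). In the named members the log2 difference was -5.93 (SE 1.59, limma adjusted p = 0.0196) in Krtap11-1, -5.39 (SE 1.83, limma adjusted p = 0.0490) in Krtap15, -5.23 in Krtap26-1, -5.12 in Krtap1-5, -4.98 in Krtap14, -4.50 in Krtap13-1 and -4.06 in Krtap3-1. Krtap10-4 (-2.56) and Krtap12-1 (-3.83 and -2.23 by its 2 probe sets) were called with smaller differences. Krtap10-4 read 55.5 to 64.8 in TERT-off replicate 1, where most members were near the floor.

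The ultrahigh sulfur families gave 13 called of 15, and 11 of 14 without TERT-off replicate 1 (median -2.94 instead of -4.18). All 6 probe sets of family 4 were called, with differences from -6.35 to -4.18. Krtap4-6 had the largest difference of a probe set with 1 symbol, -6.35 (SE 1.20, limma adjusted p = 0.00631), though its value for TERT-off replicate 2 at 6 h, an array on which the other members of the family were high, is empty in the table. Krtap9-3 (-5.07) and Krtap17-1 (-4.09) were called as well. Family 5 was graded, from -4.26 in Krtap5-2, over -1.48 in Krtap5-3, which was not called, to -0.94 in Krtap5-1.

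Krtap5-1 had the smallest difference of all and its 2 probe sets disagreed on the call. The brighter one read 125, 174, 184 and 184 in TERT-off replicate 1 and 387, 273, 182 and 135 in TERT-off replicate 2. It read 272, 386, 249.5 and 179 in TERT-on replicate 1 and 184, 509, 429.5 and 521 in TERT-on replicate 2, so the cohorts overlapped, and it missed the threshold (-0.94, SE 0.34, limma adjusted p = 0.0613). The other, of the kind the manufacturer marks as not unique to 1 transcript, was called (-2.93). Such probe sets can hybridise to related transcripts, and signal of near-identical family members cannot be separated on these arrays.

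The high glycine-tyrosine families gave 6 called of 16, and 3 of 14 without TERT-off replicate 1 (median -1.87 instead of -4.50). Krtap19-9b (-6.18, with 1 empty value in each cohort over 6 to 24 h), Krtap8-1 (-5.57), Krtap7-1 (-5.56), Krtap22-2 (-5.18) and Krtap6-5 (-5.11) were called. The empty values of Krtap19-9b are TERT-off replicate 2 at 6 h and TERT-on replicate 1 at 12 h. Its TERT-off mean log2 intensity at 6 h was thus 3.53, against 6.27 to 7.87 in the rest of family 19. The size of its difference depends on these gaps. The other 6 probe sets of family 19 had differences of -4.87 to -1.34 and were not called, nor were Krtap21-1 (-3.33), Krtap6-2 (-2.14) and both probe sets of Krtap6-3. Among unclassed families, Krtap28-13 was called (-4.72, SE 0.49, limma adjusted p = 0.00213) with 4 of its 16 values empty. It passed the filter on low values through its TERT-on arrays alone. So did the probe set of several symbols with the largest difference of all 48 (-6.47), which is counted in the high sulfur class. Krtap16-3 (-4.62, limma adjusted p = 0.0649) and Krtap31-1 (-2.98, limma adjusted p = 0.172) were not called. Calls did not follow the size of the difference alone: Krtap19-2 (-4.87, SE 2.32) was not called, and Krtap17-1 (-4.09, SE 1.03) was.

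**Figure D3:**
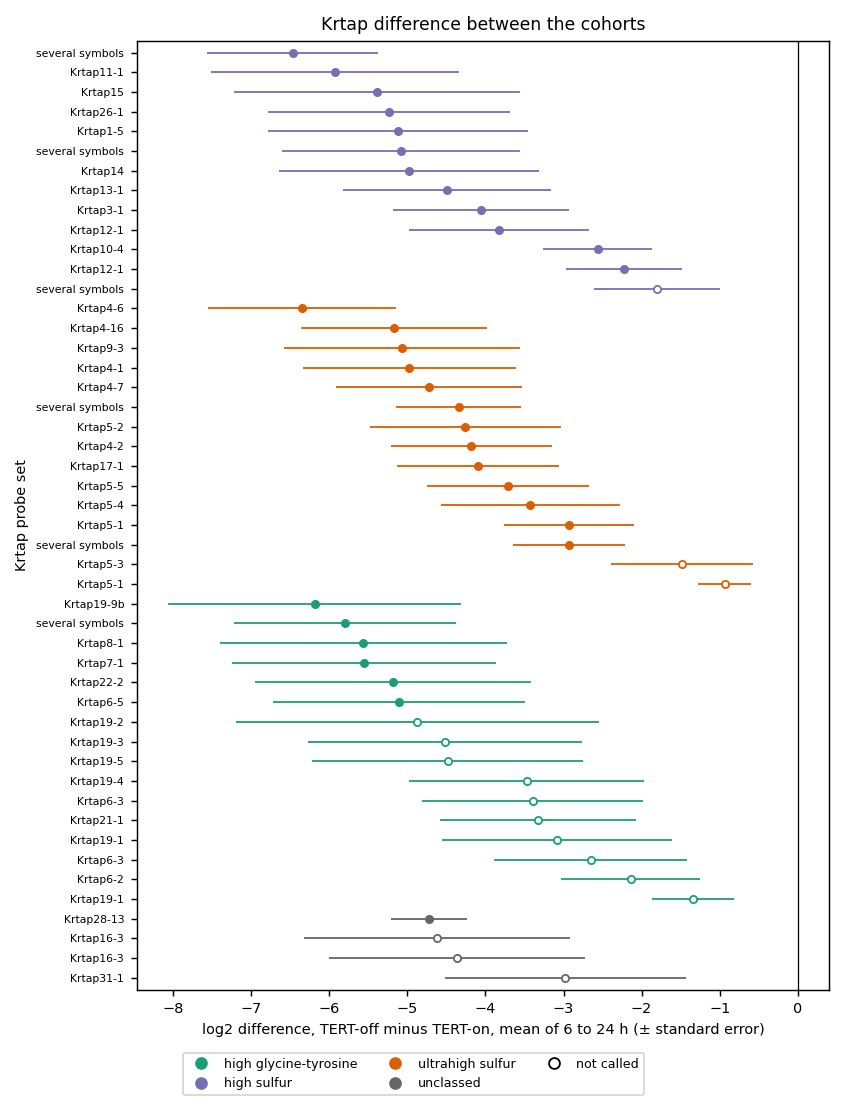
Log2 difference between the cohorts (TERT-off less TERT-on, mean of 6 to 24 h) for the 48 Krtap probe sets, by protein class; bars are ± 1 standard error, filled points were called and open points were not. All points lie below 0, and the open points gather in the high glycine-tyrosine class.

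The single times gave little. At 0 h the median Krtap difference was already -2.35 and 47 of 48 probe sets were negative, with Krtap31-1 the exception at 0.36. None was called by limma (2 at an unadjusted p under 0.05; 0.00391% of all probe sets were called lower). Without TERT-off replicate 1 the median at 0 h was 1.23, and at 6 h it was -0.01 instead of -3.31. The TERT-on side at 0 h includes the array with the low Gapdh ratio. With TERT-off replicate 2 left out, 13 members were called lower at 0 h (0.694% of all probe sets) and 33 at 6 h (6.66% of all). The comparison at 6 h thus turned on which TERT-off mouse was used.

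At 12 and 24 h the medians were -4.99 and -4.32, and they stayed at -3.75 and -3.26 without TERT-off replicate 1. At 6 and at 12 h 1 probe set was called (0.434% and 0.591% of all), and at 24 h none (0.419%; 18 of the 48 at an unadjusted p under 0.05). The probe set called was Krtap28-13, with -5.64 (limma adjusted p = 0.0379) at 6 h and -4.72 (limma adjusted p = 0.0283) at 12 h. It read 13.7, 8.03, 11.1 and 4.58 in TERT-off replicate 1 and 478, 404, 186 and 125 in TERT-on replicate 1. TERT-off replicate 2 had values only at 12 h (17.2) and 24 h (10.9), and TERT-on replicate 2 only at 0 h (222) and 12 h (717). Its comparison at 6 h was therefore 1 array against 1.

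The change from 0 h, which sets each cohort against its own start, called no Krtap probe set. Its median was -1.62 in TERT-off mice (48 of 48 negative; 0.156% of all probe sets called lower) and 0.38 in TERT-on mice (40 of 48 positive; 0.0391% called higher and 0.133% lower). The 8 that went the other way in TERT-on mice did so by 0.30 or less on the log2 scale; they included Krtap5-2, Krtap5-3, Krtap6-2, Krtap6-3, Krtap21-1 and Krtap28-13. The difference of the changes between cohorts had a median of -2.02 (48 of 48 negative), and none was called (0% of all called lower). None of these 3 comparisons had a Krtap probe set at an unadjusted p under 0.05. The cohort means hide the mice: without TERT-off replicate 1, which had no signal to lose, the median change in TERT-off was -3.25, and without TERT-on replicate 2 that in TERT-on was -1.22. The start of the last is the 0 h array of TERT-on replicate 1 alone, the one with a Gapdh ratio of 0.0599.

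Within single mice the Krtap genes moved together, but not by the same factor. No test is possible within 1 mouse, so the following folds are descriptions. Sizes are given for genes, each read by its brightest probe set, whose lower value stayed above all values of TERT-off replicate 1, a limit chosen after the values were seen. In TERT-off replicate 2, signal fell from 6 to 12 h in 43 of 43 tested probe sets with both values. Over 30 genes the median fall was 22.5-fold, from 5.39-fold in Krtap8-1 to 45.0-fold in Krtap6-3. From 0 to 6 h the same mouse had changed by a median of only 1.11-fold. The medians of families 4 and 19 were close here, 26.9-fold and 22.5-fold.

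In TERT-on replicate 1, which received no doxycycline, signal fell from 6 to 24 h in 44 of 45 tested probe sets, by a median of 7.04-fold over 32 genes. The exception was a probe set of several symbols in family 4, which went from 282 to 354. Here families 4 and 19 separated. The 5 genes of family 4 with 1 symbol fell by 2.03- to 3.34-fold, with Krtap4-16 the least, and the 5 measured genes of family 19 by 18.9- to 28.5-fold, although the dimmer probe set of Krtap19-1 fell by only 4.65-fold. By class, the median fall was 3.08-fold in ultrahigh sulfur, 6.90-fold in high sulfur and 13.9-fold in high glycine-tyrosine genes. Krtap8-1, a high glycine-tyrosine gene, fell by 2.74-fold, far from the median of its class. Large falls were not confined to family 19: Krtap6-3 fell by 23.4-fold, Krtap16-3 by 18.8-fold and Krtap14, of the high sulfur class, by 17.8-fold. Krtap5-4, of the ultrahigh sulfur class, fell by 10.6-fold.

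By 24 h this vehicle-injected mouse was lower than TERT-off replicate 2 in all 6 measured genes of family 19, at 0.352 to 0.975 times its value. In family 4 it was still 8.95 to 19.9 times higher, and in Krtap11-1 24.0 times.

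In TERT-on replicate 2 signal rose from 0 to 6 h in 47 of 47 tested probe sets, by a median of 4.14-fold over 34 genes, and then stayed level (median 1.04-fold from 6 to 24 h). Among these genes Krtap8-1 rose least, 1.94-fold, and Krtap5-4 most, 20.2-fold. Family 4 rose by 2.43- to 3.51-fold and family 19 by 4.14- to 7.99-fold.

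Genes that fell more in TERT-on replicate 1 tended to rise more in TERT-on replicate 2. Across 31 genes, which share arrays and family sequence and are not independent, the log2 folds had a Pearson r of 0.63 and a Spearman rho of 0.76. Between the falls of TERT-on replicate 1 and TERT-off replicate 2, r was 0.20 and rho 0.12 over 27 genes.

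**Figure D4:**
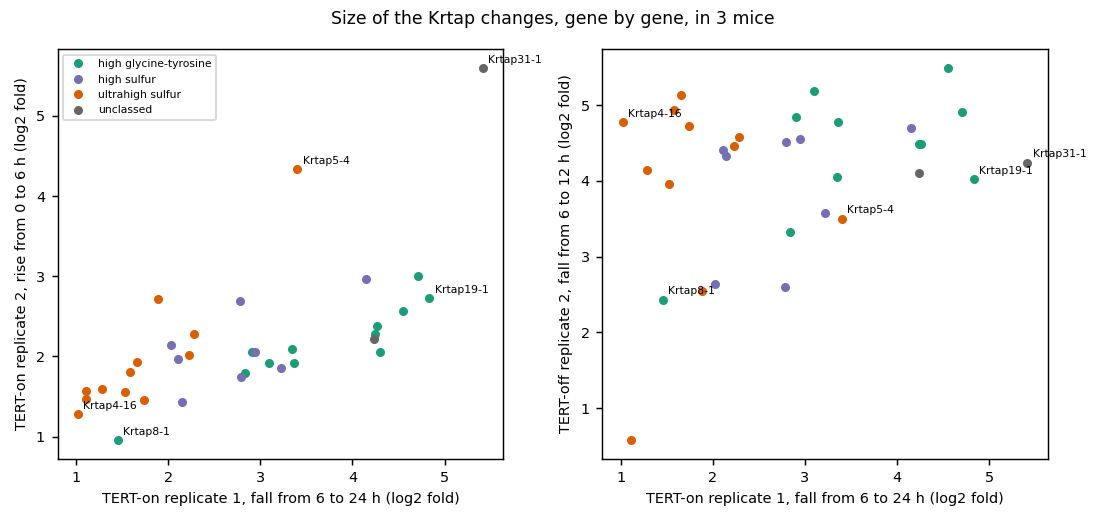
Log2 fold of each Krtap gene in TERT-on replicate 1 (fall from 6 to 24 h, horizontal) against TERT-on replicate 2 (rise from 0 to 6 h, left) and TERT-off replicate 2 (fall from 6 to 12 h, right), coloured by protein class. Genes near the level of TERT-off replicate 1, such as Krtap31-1, are drawn too. Spearman rho, over genes without a floored value only, is 0.79 on the left (33 genes) and 0.16 on the right (31 genes).

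The TERT-off mice differed widely at 0 h. TERT-off replicate 2 read at least 681 times TERT-off replicate 1 in Krtap15, 666 times in Krtap8-1 and at least 566 times in Krtap22-2, and the median over 36 genes was 109-fold. In 17 of the 36 the fold is a bound set by the floor, so the genes are not ranked. At 24 h the median was 2.00-fold over 37 genes, and many of these folds are again bounds set by the floor. The genes named above stayed far apart: at least 30.1-fold in Krtap15, 31.2-fold in Krtap8-1 and at least 17.1-fold in Krtap22-2.

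Other genes of the hair follicle were also lower in the same comparison, and with the Krtap mouse correlation none of the genes of the lists below was called. Of all genes, 12.6% were called lower, and without TERT-off replicate 1 it was 7.44% of all probe sets. Of the hair shaft keratins, the filaments that keratin-associated proteins crosslink, 11 of 12 tested were called lower over 6 to 24 h (median -4.43), among them Krt81 (-3.86), Krt83 (-3.76), Krt35 (-4.84), Krt33a (-5.94), Krt32 (-2.96) and Krt34 (-5.35). Krt84 (-2.60, limma adjusted p = 0.121) was not called. Without TERT-off replicate 1, 8 of 11 were called (median -2.69). The inner root sheath and companion layer, which encase the shaft, gave 9 of 9 (median -4.83), with Krt25 at -4.55, Krt71 at -4.43 and Tchh at -4.62, and 9 of 9 without TERT-off replicate 1 (median -2.91). Of the genes of cuticle and crosslinking, 9 of 11 were called (median -2.37), including Prr9 (-5.24), Mt4 (-2.37), S100a3 (-5.87) and Padi3 (-5.48), while Selenbp1 was at -0.19 and was not called; without TERT-off replicate 1 it was 7 of 10 (median -1.86). Of the transcription factors of matrix and shaft, 8 of 16 were called lower (median -0.78), and 6 of 16 without TERT-off replicate 1 (median -0.48). Of the brightest, Dlx3 (-2.21), Cux1 (-1.12), Ovol1 (-1.01) and Vdr (-0.99) were called, and Gata3 and Hr (both -0.26) were not. Chosen after their values were seen, Msx2 was at -3.35, Hoxc13, a homeobox factor that activates hair keratin genes, at -2.74 and Foxn1, the factor lost in nude mice, at -2.21. At 0 h the medians of these 4 lists were already -1.63, -2.41, -0.49 and -0.36, in the order given, and none of their genes was called at 0 h or in the difference of the changes from 0 h.

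The lists did not all follow the Krtap genes in TERT-on replicate 1. From 6 to 24 h mean log2 intensity in this mouse went from 9.98 to 7.15 over the Krtap genes and from 10.48 to 8.31 over the hair shaft keratins. It went from 11.82 to 11.05 over the inner root sheath genes and from 8.47 to 8.23 over the transcription factors. In TERT-off replicate 2 all 4 dropped between 6 and 12 h, the inner root sheath genes from 11.27 to 7.84 and the transcription factors from 8.49 to 7.27. Whether the lists differ in TERT-on replicate 1 cannot be tested with 1 mouse.

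**Figure D5:**
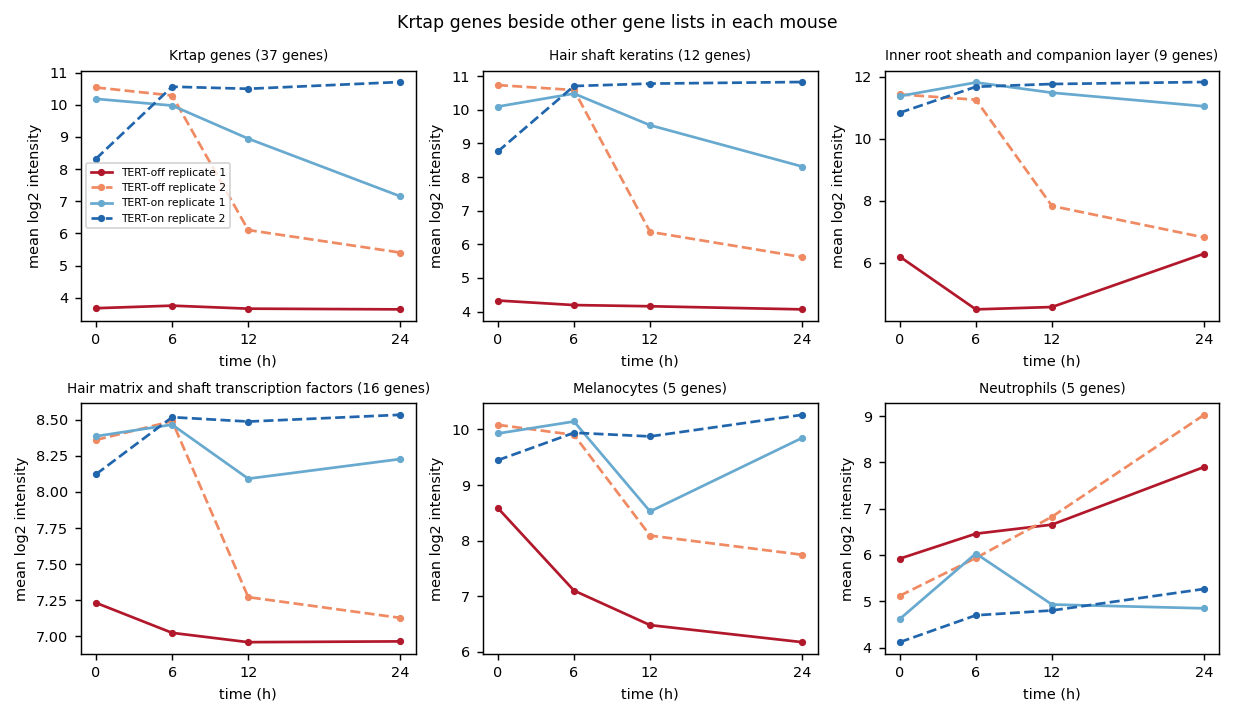
Mean log2 intensity of the Krtap genes and 5 other lists against time in h, 1 line per mouse; each panel has its own vertical axis. In TERT-on replicate 1 the Krtap genes and hair shaft keratins decline to 24 h (7.15 and 8.31), while the inner root sheath genes end at 11.05.

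Markers of the skin's cell types were read on the same arrays. Basal and suprabasal keratinocyte markers were above the floor on all arrays, and 1 of 4 and 0 of 4 were called (Col17a1, higher). Melanocyte markers were lower after TERT withdrawal (5 of 5 called, median -2.15; summed intensity 566 to 5377 in TERT-off and 2370.1 to 7159 in TERT-on). Neutrophil markers were higher (5 of 5, median 2.13; summed intensity 1098 to 9269 against 369.8 to 999.7), as were macrophage markers (5 of 5, median 1.44; 2959 to 7156 against 1757 to 3153). Of the fibroblast markers 4 of 5 were higher, of muscle 2 of 5, of adipocytes 2 of 3 and of sebocytes 2 of 4, with none lower. Of all genes, 16.9% were called higher and 12.6% lower. Of the 5 neutrophil markers, 0 to 3 lay under the floor on a TERT-on array after 0 h, and 0 to 1 on a TERT-off array. The neutrophil sum was mostly S100a8 and S100a9, with mean log2 intensities of 8.99 and 8.39 over the arrays. Cxcr2, Csf3r and Mmp8 were dim, at 3.59, 4.11 and 4.11. At 0 h, before the injection, the neutrophil sum was already 685 to 954 in TERT-off against 135 to 249 in TERT-on skin, and the macrophage sum 2096 to 3852 against 1462 to 2229.5, while the melanocyte sums overlapped (2554 to 6329 against 4222 to 5794). No marker was called at 0 h or in the difference of the changes from 0 h. Without TERT-off replicate 1, 5 of 5 melanocyte, 4 of 5 neutrophil, 4 of 5 macrophage and 2 of 5 fibroblast markers were called the same way, and 1 of 5 muscle markers was called lower. In that setting 7.44% of all probe sets were called lower and 11.9% higher. The part of these cell types in the Krtap differences was not tested.

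Over the 16 arrays, the 10 of 12273 other genes whose log2 intensity tracked the Krtap mean most closely were, by Pearson r, Krt83 (0.994), Krt34 (0.991), Gm10228 (0.991), Krt31 (0.988), Krt33a (0.984), Adh6b (0.981), Gm11567 (0.979), Gm11563 (0.978), Ly6g6g (0.976) and Calhm4 (0.973). The 16 arrays come from 4 mice, and the correlations describe these arrays only. The symbols Gm10228 and Gm11567 also stand on Krtap probe sets of several symbols, so they are not separate from the members.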

How the data were processed

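RNA from each skin biopsy was amplified with biotin and hybridised to an Affymetrix Mouse Genome 430 2.0 array. The authors deposited linear intensity values, 1 for each probe set and array, which dChip had normalised on invariant sets and modelled from perfect-match minus mismatch differences; 18 Krtap cells, in 9 members, are empty. Per the labels, the 16 arrays are biological replicates in 8 groups of 2; their number limits the precision.

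Here, intensities below 7.71 (percentile 20 of all values) were set to that floor before log2 was taken. A probe set was tested if it exceeded 34.4, the median of all values, on 2 or more arrays and had a value in each group. This left 25563 probe sets and 12580 genes, each gene read by its brightest probe set. A single limma fit (3.58.1, in R 4.3.3 with statmod 1.5.0) gave all comparisons, from the 8 group means with mouse as random block and an intensity-dependent prior; p-values are two-sided, adjusted by Benjamini-Hochberg over all probe sets, also where genes are counted. The comparisons share samples. The fit was tested on simulated data with errors drawn independently for each array. That simulation therefore cannot show how the calls fare when arrays of 1 mouse are alike. The study's own test, SAM, was not used here.

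The Krtap members, gene lists and rules were chosen with earlier results of these data known. Named were the brightest probe set of each family, members called where 5 or fewer were, the 3 largest and 3 smallest differences, the 3 largest between the TERT-off mice at 0 h, members against the majority and up to 6 of the brightest genes per list; other names were chosen after their values were seen. Symbols were updated through RefSeq. Protein classes are those usual for each family. Alternatives changed the floor, filter, normalisation, empty cells, blocks, trend, mice and probe sets per gene. Figures were drawn with matplotlib 3.10.9.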

Additional observations from a re-analysis of the deposited data

How the results depend on the processing

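Over 6 to 24 h, the 32 Krtap probe sets called lower became 6 with no filter on dim probe sets, and, in alternatives chosen after seeing the data, 20 with 1 mean per mouse and 0 with the mouse correlation of the Krtap probe sets. Leaving out 1 mouse gave 1 to 44 called over 6 to 24 h, 0 to 13 at 0 h (0 with all mice), 0 to 33 at 6 h (1), 0 to 22 at 12 h (1), 0 to 14 at 24 h (0) and 0 to 1 for the change from 0 h in TERT-off (0). Of all probe sets, these fits called 0.0473% to 16.2% lower over 6 to 24 h. The share was 0.694% in the fit with 13 called at 0 h and 6.66% in that with 33 at 6 h. Where no share of all probe sets is given, a shift in the count may not be particular to Krtap. The 1 call at 6 h became 0 with the floor at the table's median, no filter, empty cells set to the floor, no intensity trend, without the 0 h array of TERT-on replicate 1 and with the Krtap mouse correlation. The 1 call at 12 h became 0 with no filter, empty cells set to the floor and the Krtap mouse correlation. With the replicate number as a block shared by the cohorts, 45 were called over 6 to 24 h, 7 at 12 h and 3 at 24 h; the numbers pair mice in name only, since same-numbered mice of the cohorts deviated with a median correlation of 0.0149 (-0.125 to 0.0986 over the 4 times). The cause of these shifts was not tested. For single members over 6 to 24 h, and without the alternatives chosen after seeing the data, 510 of 660 values kept their direction and side of the threshold, 29 passed it newly, 121 no longer did and 0 changed sign; other comparisons were not run member by member, and at 0 h the median turned from -2.35 to 1.23 without TERT-off replicate 1.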
